A study of Mus musculus with 2 samples.

Results

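The C-type lectin receptors named Clec and Cd209 were described in phagocytes of a mouse tumor that a magnetic column retained or let pass. Members were all genes in the deposited tables whose symbol is Clec followed by a digit or Cd209 followed by 1 letter, which gave 38 of 32285 genes. The mice were wild-type C57BL/6 animals bearing a subcutaneous graft of a syngeneic fibrosarcoma, and the labels name no allele or drug for either group. It was dissociated with collagenase and DNase, and the cells were passed over a magnetic column meant to hold back iron-rich cells. The eluate (iron-positive) and the flowthrough (iron-negative) each gave 1 single-cell 3′ RNA library, so every comparison below is between 2 libraries, with no replicate and no test. The labels do not give the number of mice or tumors behind either library, and the data hold no measure of iron.

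C-type lectin receptors carry a calcium-dependent or related carbohydrate-recognition fold and let myeloid cells read sugars and lipids on microbes, dying cells and glycoproteins. Some couple to the adapters Fcer1g or Tyrobp and signal through Syk and Card9, others carry an inhibitory motif that recruits phosphatases, and others mainly take up their ligand. The Cd209 genes of the mouse are homologues of human DC-SIGN, and several are known from resident macrophages.

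The iron-negative library held 10124 barcodes and 132796517 unique molecular identifiers (UMIs, 1 per captured RNA molecule), and the iron-positive library 13668 barcodes and 129921053 UMIs. Filters on genes and mitochondrial RNA left 9403 iron-negative cells (median 13017 UMIs) and 12143 iron-positive cells (median 7349 UMIs), and 80 of their barcodes occurred in both libraries. Cells were assigned by marker genes, none of them a Clec or Cd209 gene. Phagocytes numbered 8920 (94.9%) in the iron-negative library and 8377 (69.0%) in the iron-positive one. The iron-positive library also held 619 endothelial cells, 243 fibroblast or tumor mesenchymal cells, 127 pericytes or smooth muscle cells, 50 T or NK cells and 43 neutrophils, and the iron-negative library 10, 47, 1, 22 and 9. Outside the phagocyte list, each marker was higher in its gate than in all phagocytes in both libraries except Syngr1 of the Arg1 Mmp9 state, which was at 42.7 CPM in that state and 44.5 CPM in all phagocytes of the iron-negative library. Cd3d, for example, was at 985 and 728 CPM in the T or NK gate and at 0.403 and 0.503 CPM in phagocytes. Levels in CPM are UMIs of a gene summed over the cells of a gate, per 1000000 UMIs of that gate. All intervals are exact 95% intervals and cover counting error only.

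Of the 10 phagocyte states gated, 2 were at least 2-fold more frequent in the iron-positive library, and these are called the column-retained states here. The Arg1 Mmp9 state, with a ratio of 1.60 (1.46 to 1.75), reached 3.18 with the gate threshold doubled and 2.05 with cells thinned to 5000 UMIs, the latter chosen after seeing the data. The Mmp12 Cd36 gate used Mmp12 (a macrophage elastase), Cd36 (a lipid scavenger receptor) and Gpnmb and needed at least 2 of these. It held 0.751% of iron-negative phagocytes (67 cells) and 11.6% of iron-positive phagocytes (968 cells). The ratio of these shares was 15.4 (12 to 20). The Cd163 Lyve1 gate used Cd163 (the receptor for hemoglobin-haptoglobin), Lyve1, Marco, Folr2, F13a1 and Timd4 and needed more than 2 of these. It held 4.60% (410 cells) and 10.0% (840 cells), a ratio of 2.18 (1.94 to 2.46). Another state, the Retnla Cbr2 phagocytes, shares cells with the Cd163 Lyve1 state but was less frequent in the iron-positive library, at 2.83% and 1.99% (ratio 0.706, 0.577 to 0.861). That ratio was 0.919 with cells thinned to 5000 UMIs and 1.08 with cells thinned to 1000 UMIs, so that its direction did not hold in both. States may overlap: 4 iron-negative and 121 iron-positive cells passed both retained gates, and 19.2% and 30.6% of phagocytes passed no state gate.

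**Figure D1:**
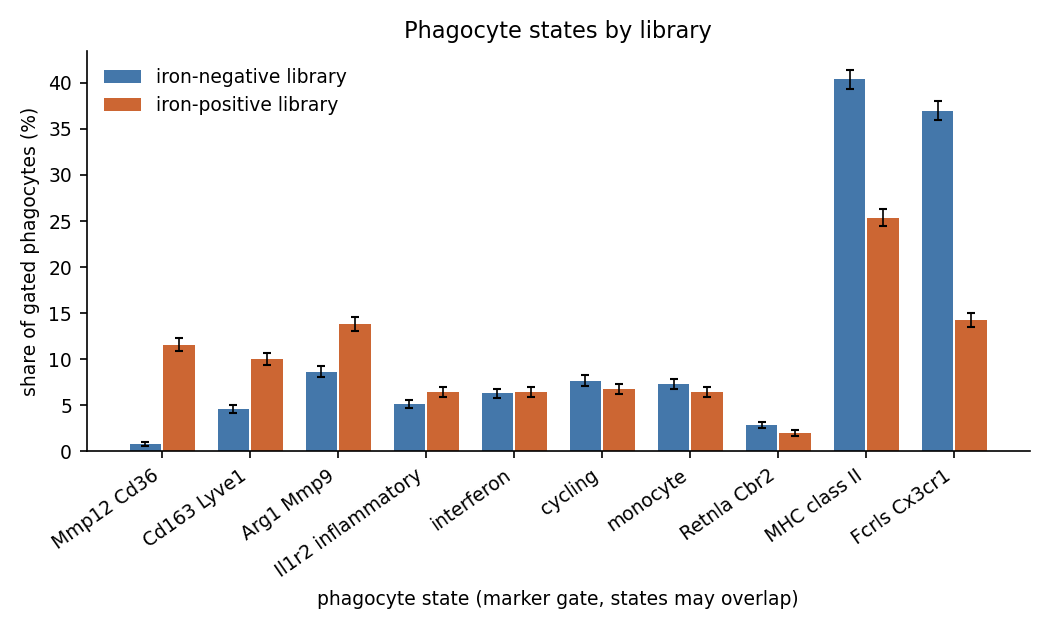
Share of gated phagocytes (%) in each of 10 marker-gated states, by library, with exact 95% binomial intervals. The Mmp12 Cd36 share is 0.751% in the iron-negative and 11.6% in the iron-positive library, and the Cd163 Lyve1 share 4.60% and 10.0%. The Fcrls Cx3cr1 and MHC class II shares are lower in the iron-positive library.

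Of the 38 members, 20 reached 10 CPM in a gate of at least 50 cells with at least 50 UMIs in all and are described individually. The other 18 stayed at or under 8.03 CPM in every gate of that size, 12 of them with under 50 UMIs in both libraries together and 1, Clec3a, with no UMI. Clec7a was not analysed here. Many of the expressed members lie side by side. On chromosome 6, chr6:122921848-123289870 (GRCm38) holds the 9 genes of the Dectin-2 cluster over 368 kb, in the order Clec4a1, Clec4a3, Clec4a4, Clec4b1, Clec4a2, Clec4b2, Clec4n, Clec4d and Clec4e. On chromosome 8, chr8:3707064-4137707 holds the 7 Cd209 genes and Clec4g over 431 kb.

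The DNA just before 5 of these genes is shown because their RNAs were at least 2-fold higher in a retained state of at least 1 library below. Clec4e was so in the iron-negative library only. Clec4n and Cd209g of the same clusters were so too but are not shown. No upstream sequence was at hand for Clec4n, and that of Cd209g overlaps an annotated exon. Each line is the part of the 250 bases before the RefSeq start site that lies before any annotated exon (GRCm38.p6, strand of the gene, 5′ to 3′), with matches to 4 searched motifs in capitals. The sequences are those of chr6:123261857-123262106 (plus strand) for Clec4d, chr6:123289872-123290121 (minus) for Clec4e, chr8:4105836-4106014 (minus) for Cd209f, chr8:3878556-3878749 (minus) for Cd209d and chr8:3926845-3927091 (minus) for Cd209b.
Clec4d: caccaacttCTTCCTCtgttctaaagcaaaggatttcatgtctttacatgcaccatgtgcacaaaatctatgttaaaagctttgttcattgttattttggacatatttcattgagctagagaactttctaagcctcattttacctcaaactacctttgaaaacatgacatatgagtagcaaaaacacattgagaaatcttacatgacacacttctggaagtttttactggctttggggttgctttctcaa
Clec4e: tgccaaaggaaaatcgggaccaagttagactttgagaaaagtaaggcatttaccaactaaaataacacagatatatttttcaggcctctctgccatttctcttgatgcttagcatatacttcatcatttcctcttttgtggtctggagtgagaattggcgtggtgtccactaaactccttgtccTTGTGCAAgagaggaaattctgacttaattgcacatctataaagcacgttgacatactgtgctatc
Cd209f: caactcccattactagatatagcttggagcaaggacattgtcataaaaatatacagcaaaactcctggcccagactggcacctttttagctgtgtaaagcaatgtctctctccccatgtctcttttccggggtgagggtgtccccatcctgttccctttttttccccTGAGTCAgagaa
Cd209d: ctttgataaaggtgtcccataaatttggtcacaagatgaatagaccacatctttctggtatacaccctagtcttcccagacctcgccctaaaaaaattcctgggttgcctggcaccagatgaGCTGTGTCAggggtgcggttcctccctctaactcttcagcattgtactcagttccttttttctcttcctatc
Cd209b: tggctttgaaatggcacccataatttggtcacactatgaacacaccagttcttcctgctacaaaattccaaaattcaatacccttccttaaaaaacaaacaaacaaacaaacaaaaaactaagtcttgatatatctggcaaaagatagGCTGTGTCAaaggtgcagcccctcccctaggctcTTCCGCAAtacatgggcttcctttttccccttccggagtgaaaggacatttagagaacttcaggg
The motifs, searched on both strands, were the PU.1 core GAGGAAG, the AP-1 site TGANTCA, the antioxidant response element core TGACNNNGC and the C/EBP site TTGCNNAA. The MAF half-site TGCTGAC was searched too and had no match in these 5. In Clec4d the capitals mark 1 PU.1 match, 241 bases before the start site, and in Clec4e 1 C/EBP match at 66 bases. In Cd209f they mark 1 AP-1 match at 83 bases. Cd209d and Cd209b hold the same 9 letters, GCTGTGTCA, which match the antioxidant response element core at 128 and 102 bases, and Cd209b also holds a C/EBP match at 68 bases. Of 32851 windows of 250 bases, 10.6% held the PU.1 letters, 6.75% AP-1, 10.2% the antioxidant core, 9.56% C/EBP and 3.81% MAF, so that each match is a description of the letters and no evidence of a bound factor.

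The first comparison set iron-positive phagocytes beside iron-negative phagocytes. Clec4d, Cd209f and Cd209g were the members of at least 10 CPM in a library that differed by at least 2-fold, all of them higher in the iron-positive library. Of 12 members that reached 10 CPM on at least 1 side, 3 were at least 2-fold higher and 0 at least 2-fold lower. Cd209f and Cd209g reached 10 CPM in the iron-positive library only, so they could not have been counted as lower. Over all 7713 genes measured in the same way, 1.02% were at least 2-fold higher and 0.0389% at least 2-fold lower. The median log2 ratio of the 12 members was 0.19 against -0.10 over all genes, of which 24.5% were above 0, and 6 of the 12 members lay above 0.

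Clec4d (the receptor MCL or Dectin-3, which binds mycobacterial glycolipid and pairs with Clec4e) was at 122.8 CPM in iron-negative and 296.5 CPM in iron-positive phagocytes. The ratio was 2.41 (2.37 to 2.46). Its neighbour Clec4n, which encodes the mannan receptor Dectin-2, went from 311 to 482 CPM, a ratio of 1.55 (1.53 to 1.57). Clec4e, or Mincle, a sensor of mycobacterial cord factor and of dying cells, was at 34.1 and 45.2 CPM, a ratio of 1.33 (1.27 to 1.38). These 3 genes form an end of the Dectin-2 cluster, and all were higher in the iron-positive phagocytes.

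The genes towards the other end of the cluster were lower. Clec4a2 (DCIR1, which carries an inhibitory motif in its tail) was at 241 CPM in iron-negative and 199 CPM in iron-positive phagocytes, a ratio of 0.825 (0.810 to 0.841). Clec4a3 gave a ratio of 0.815 (0.798 to 0.832) and Clec4a1 one of 0.881 (0.866 to 0.897). These ratios are small next to the 2-fold size used here, and the median over all genes was also below 1.

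Clec12a (MICL, an inhibitory receptor for uric acid crystals) was the lowest of the 12, at 151.8 and 113.6 CPM with a ratio of 0.749 (0.731 to 0.767). Clec5a, a receptor coupled to Tyrobp, was at 63.5 and 61.5 CPM, and its ratio of 0.969 had an interval of 0.935 to 1.0. Clec2d, the ligand of inhibitory NK receptors of the Klrb1 family, was at 83.6 and 81.5 CPM, a ratio of 0.975 (0.946 to 1.0). These last 2 genes did not differ between the libraries beyond counting error, and they lay above 1 (1.04 and 1.05) when the libraries were scaled to the median ratio over genes.

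The uptake receptors of the Cd209 cluster gave the widest ratios. Cd209f was at 5.78 and 32.4 CPM, a ratio of 5.61 (5.16 to 6.09), and Cd209g at 2.67 and 18.6 CPM, a ratio of 6.98 (6.20 to 7.89). Under 10 CPM in both libraries were Cd209d at 1.92 and 8.92 CPM (ratio 4.64, 4.0 to 5.38), Cd209a at 0.354 and 1.38 CPM (3.89, 2.73 to 5.64) and Cd209b at 0.169 and 2.94 CPM (17.4, 11.1 to 28.5). Outside that family Clec2g, also under 10 CPM, was at 1.79 and 5.17 CPM (2.89, 2.45 to 3.41). Clec10a (MGL1, a receptor for terminal galactose and N-acetylgalactosamine) went from 47.4 to 92.9 CPM, a ratio of 1.96 (1.89 to 2.03). All these Cd209 genes were higher in the iron-positive phagocytes, but as sums over phagocytes they mix the level in a state with the number of cells in it.

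**Figure D2:**
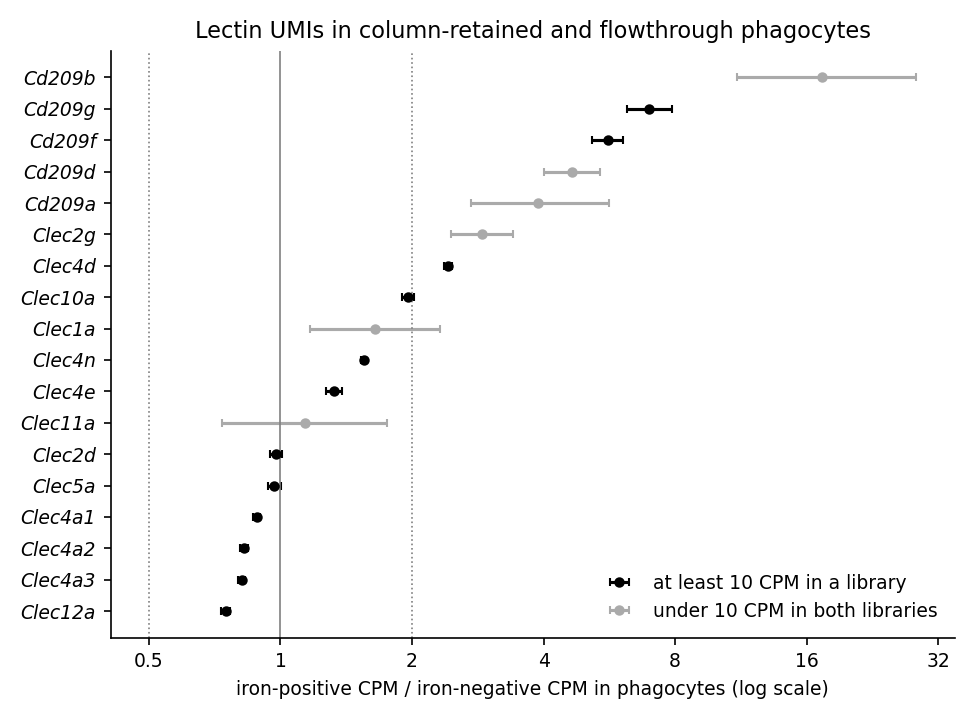
Ratio of CPM in iron-positive over iron-negative phagocytes (log axis) for 18 members, with exact 95% counting intervals, black at 10 CPM or more in a library and grey below it. Clec14a, with no iron-negative UMI, and Clec3b, with under 50 UMIs, are not drawn. The Cd209 genes, Clec2g and Clec4d lie to the right of the dotted line at 2, and Clec12a lies lowest at 0.749.

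When the 10 states were given equal weight in both libraries, the ratio of Cd209f was 1.71, that of Cd209g 2.20, that of Clec4d 1.53, that of Clec4n 1.48 and that of Clec10a 1.13. Equal weights thus left 1 member, Cd209g, past 2-fold. Neutrophils carried far more Clec4d and Clec4e than phagocytes in both libraries: Clec4d was at 2513 CPM in 9 iron-negative and 2193 CPM in 43 iron-positive neutrophils, and Clec4e at 2590 and 2956 CPM. The summed neutrophil markers in gated phagocytes were 45.7 CPM in the iron-negative and 65.0 CPM in the iron-positive library, with Csf3r at 39.6 and 38.7 CPM as the highest of 4 and none at 0. The part of these cells' RNA in the Clec4d ratio was not tested.

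The second comparison asked which lectins mark the Mmp12 Cd36 state within each library. Clec4n and Clec4d, neighbours in the Dectin-2 cluster, were at least 2-fold higher here in both libraries. In the iron-negative library Clec4n, Clec4d and Clec4e were at least 2-fold higher than in other phagocytes, 3 of 10 members measured against 3.1% of all genes, and 0 members were at least 2-fold lower against 4.03%. In the iron-positive library Clec4n and Clec4d were higher, 2 of 13 members against 2.25% of genes, and 6 members were lower against 3.49%.

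Clec4n was at 727 CPM in iron-negative Mmp12 Cd36 cells and 308 CPM in other phagocytes, a ratio of 2.36 (2.18 to 2.55). The iron-positive levels were 1047 and 392 CPM, a ratio of 2.67 (2.62 to 2.73). The Mmp12 Cd36 state thus had the highest Clec4n level of the 10 states in both libraries.

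Clec4d was at 557 CPM in the state and 120 CPM outside it in the iron-negative library, a ratio of 4.66 (4.26 to 5.09). Among iron-positive phagocytes it was at 720 and 229 CPM, a ratio of 3.15 (3.07 to 3.23). After thinning each cell to 3000 UMIs, 80.3% (77.4% to 83.0%) of iron-positive Mmp12 Cd36 cells held a Clec4d UMI, against 44.1% of all phagocytes and 5.90% of endothelial cells, which should lack the gene. Without thinning the shares were 89.5%, 63.6% and 20.7%, at median depths of 11507, 9154 and 9505 UMIs.

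Clec4e was at 95.7 and 33.6 CPM in the iron-negative library (ratio 2.85, 2.28 to 3.52) and at 60.3 and 42.8 CPM in the iron-positive library (ratio 1.41, 1.30 to 1.53). The iron-negative value rests on 88 UMIs in 67 cells and was 1.51 with the gate threshold doubled, and the iron-positive value ranged from 0.782 to 1.68 over 12 alternatives. Clec4e was the member of this trio whose level within the state was lower in the iron-positive library, by a ratio of 0.630 (0.504 to 0.795).

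Of the 10 states Clec4e was highest in the monocyte state, at 135 CPM in the iron-negative and 164 CPM in the iron-positive library, 4.74 and 4.26 times other phagocytes. There 3 of 10 iron-negative members (Clec4d, Clec4e and Clec10a) were at least 2-fold higher against 2.61% of genes, and 0 lower against 3.42%. Among iron-positive members 1 of 12, Clec4e, was higher against 2.76%, and Cd209f, Cd209g and Clec10a were lower against 4.48%.

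The Arg1 Mmp9 gate overlaps this state and held 35 Mmp12 Cd36 cells of 67 in the iron-negative library and 458 of 968 in the iron-positive one. Clec4d was at 810 CPM in iron-positive cells of both gates, 624 CPM with the Mmp12 Cd36 gate alone, 533 CPM with the Arg1 Mmp9 gate alone and 195 CPM with neither. Clec4n separated the gates more: it was at 1105 CPM in both, 985 CPM with Mmp12 Cd36 alone, 480 CPM with Arg1 Mmp9 alone and 382 CPM with neither. In the iron-negative library the same 4 Clec4n levels were 631, 796, 292 and 309 CPM, so that cells with the Arg1 Mmp9 gate alone were there not above those with neither.

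The 6 members at least 2-fold lower in the iron-positive Mmp12 Cd36 state were Clec4a3, Clec12a, Cd209d, Cd209f, Cd209g and Clec10a. The 3 Cd209 genes reached 10 CPM only outside the state, so they could not have been counted as higher. Clec4a3 was at 83.8 CPM in the iron-positive state and 182 CPM outside it (ratio 0.461, 0.432 to 0.492), and its iron-negative ratio was 0.520 (0.422 to 0.633). Clec12a gave 0.409 (0.376 to 0.444) in the iron-positive library but 0.931 (0.778 to 1.11) in the iron-negative library. Clec4a1 and Clec4a2 had ratios from 0.672 to 0.761 over both libraries and did not reach 2-fold.

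Cd209f was at 5.43 CPM in the iron-positive Mmp12 Cd36 state and 36.7 CPM outside it (ratio 0.148, 0.113 to 0.189), and the ratios of Cd209d and Cd209g were 0.142 and 0.136. Clec10a gave 0.456 (0.417 to 0.498) in the iron-positive and 0.618 (0.407 to 0.900) in the iron-negative library. The iron-positive ratios of Clec10a and Clec4a3 rose to at most 0.544 and 0.557 under the alternatives, short of 2-fold. The 67 iron-negative cells held no UMI of Cd209g, Cd209d or Cd209b, which allows up to 3.26 CPM (3 counts), while the phagocytes outside the state were themselves under that level.

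The third comparison asked the same of the Cd163 Lyve1 state, and here the Cd209 genes and Clec10a were the markers. In the iron-negative library 5 of 13 members measured were at least 2-fold higher than in other phagocytes, against 4.6% of all genes, and 1 was lower against 3.26%. Among iron-positive members 6 of 15 were higher against 4.95%, and 2 were lower against 4.42%. Cd209d, Cd209f and Cd209g reached 10 CPM only inside the state in both libraries, as did Cd209b and Clec2g in the iron-positive library. These members could therefore not have been counted as lower, so the counts of higher members are descriptions only. Cd209d, Cd209f, Cd209g and Clec10a were higher in both libraries, and Clec12a was lower in both.

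Cd209f was at 117 CPM in iron-negative Cd163 Lyve1 cells and 0.908 CPM in other phagocytes, a ratio of 129 (105 to 160). Iron-positive cells had 230 and 6.60 CPM, a ratio of 34.9 (31.7 to 38.6). Both levels were higher in the iron-positive library, the level outside the state by more. Without thinning, 2.75% of iron-positive endothelial cells, which should lack the gene, also held a Cd209f UMI. The part of such background in the level outside the state was not tested. Over 12 alternatives the ratios ranged from 41.6 to 328 in the iron-negative and from 12.9 to 53.3 in the iron-positive library, so that their direction held and their size did not.

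Cd209g was at 53.2 and 0.454 CPM in the iron-negative library (ratio 117, 87.3 to 160) and at 128 and 4.38 CPM in the iron-positive library (ratio 29.2, 25.9 to 33.1). Cd209d, a close relative, was at 35 and 0.479 CPM and at 64.0 and 1.74 CPM, with ratios of 73.0 and 36.7. Cd209b, known for the capture of polysaccharides by marginal zone macrophages of the spleen, was at 21.5 CPM in the iron-positive state and 0.516 CPM outside it (ratio 41.7, 29.5 to 60.3). The iron-negative Cd163 Lyve1 cells held 20 Cd209b UMIs (3.84 CPM) and all other iron-negative phagocytes 1.

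Clec10a was at 402 CPM in iron-negative Cd163 Lyve1 cells and 31.9 CPM in other phagocytes, a ratio of 12.6 (11.9 to 13.3). The iron-positive levels were 475 and 43.1 CPM, a ratio of 11 (10.5 to 11.5). Of the last 500 bases of Clec10a, 20.4% of the 50-letter words also occur in its neighbour Mgl2, so that some UMIs of this pair may be uncertain.

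Clec2g, a relative of the NK receptor ligand Clec2d, was at 20.9 CPM in the iron-positive state and 3.12 CPM outside it, a ratio of 6.70 (5.53 to 8.11). Clec4d was 2.17-fold higher in the iron-negative state (254 against 117 CPM) and 1.69-fold higher in the iron-positive state (464 against 275 CPM). Clec4d was thus higher in both retained states and in both libraries, past 2-fold in 3 of the 4 comparisons. Its iron-negative ratio in the Cd163 Lyve1 state ranged from 1.62 to 2.53 over the alternatives and so did not hold the 2-fold size in all of them.

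Lower in this state were Clec12a, with ratios of 0.486 (0.438 to 0.537) and 0.442 (0.404 to 0.482) in the iron-negative and iron-positive library, and Clec5a, with 0.616 and 0.381. The iron-negative Clec12a ratio reached 0.638 under an alternative. Clec4a1 was higher in both (1.47 and 1.32), and Clec4a2 lower in both (0.805 and 0.591). The Clec4a receptors therefore did not move as a block across these states.

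**Figure D3:**
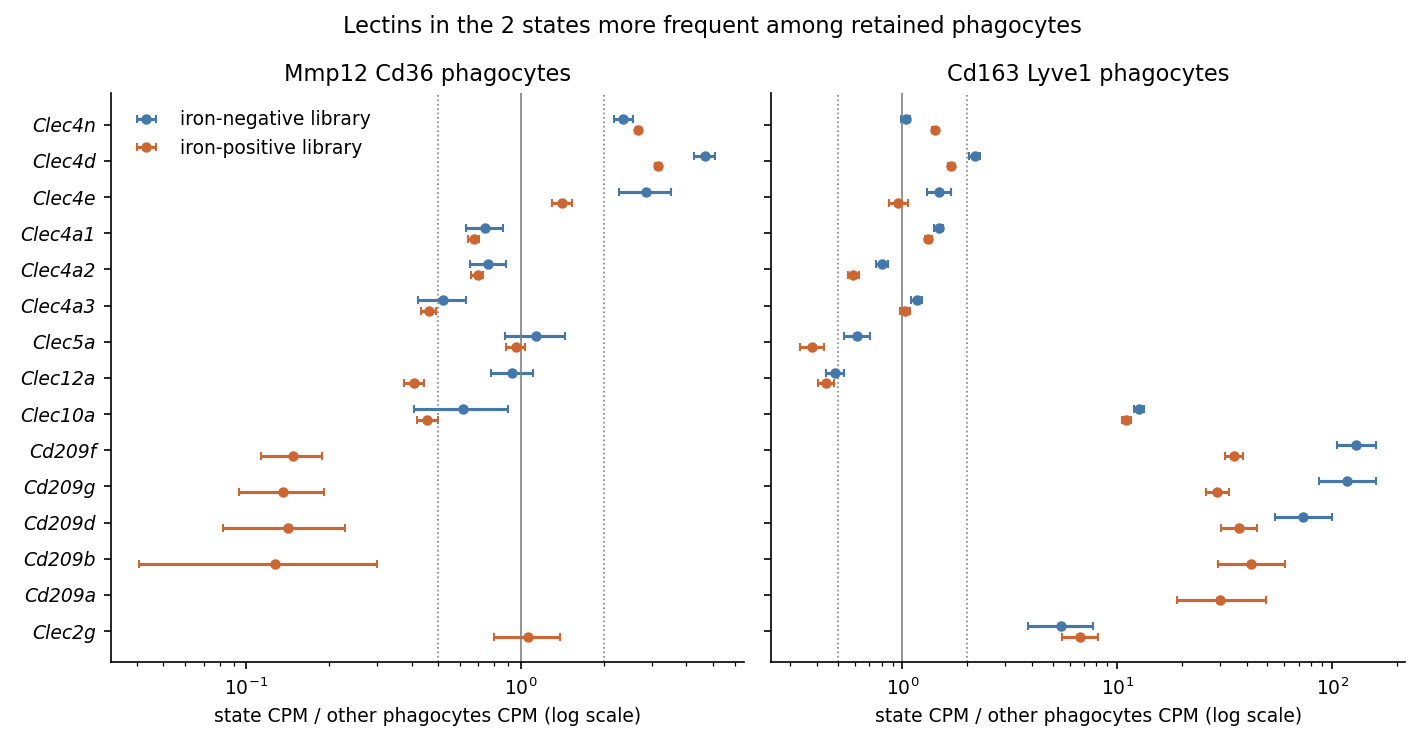
CPM in a column-retained state over CPM in the other phagocytes of the same library (log axis), with exact 95% counting intervals, for 15 of the described members, where they had at least 5 UMIs in the state and 50 in all. Left, Mmp12 Cd36 phagocytes, with Clec4n and Clec4d to the right of 2 in both libraries and the Cd209 genes from 0.127 to 0.148 in the iron-positive library. Right, Cd163 Lyve1 phagocytes, with Clec10a at 12.6 and 11 and the drawn Cd209 genes from 29.2 upwards. Cd209e, which stayed under 10 CPM and is not drawn, gave 24.8 in the iron-positive library.

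The Cd209 genes were detected in a minority of the Cd163 Lyve1 cells, often together. A Cd209f UMI was seen in 16.3% of 410 such cells in the iron-negative library and in 30.4% of 840 in the iron-positive one. Among the iron-positive cells with a Cd209f UMI, 71.4% also held Cd209g and 52.2% Cd209d, against 4.27% and 3.42% of those without. In the iron-negative library these shares were 62.7% and 44.8% against 1.17% and 4.08%. The median depth was 11459 UMIs with and 10339 without a Cd209f UMI in the iron-positive library, and 12403 and 10703 in the iron-negative. Clec4d did not follow this split, at 80% with and 83.4% without in the iron-positive library.

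After thinning to 3000 UMIs per cell, 24.0% (21% to 27.1%) of iron-positive Cd163 Lyve1 cells held a Cd209f UMI, against 11.3% (8.34% to 14.9%) of the iron-negative ones. The shares were 1.49% of iron-positive Mmp12 Cd36 cells and 0.236% of endothelial cells, and the unthinned shares of the latter pair were 3.51% and 2.75%. The share among Cd163 Lyve1 cells was therefore above that in cells that should lack Cd209f in this library.

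The highest Cd209 and Clec10a levels of the 10 states lay in the Retnla Cbr2 state, which the column did not enrich. There 4 of 13 iron-negative members were at least 2-fold higher than in other phagocytes against 4.81% of genes, and 7 of 16 iron-positive members against 6.05%. Members that reached 10 CPM only inside this state could not have been counted as lower. None was lower in the iron-negative library (3.01% of genes), and Clec5a and Clec12a were lower in the iron-positive library (3.86%). Cd209f was at 168 CPM in the iron-negative and 254 CPM in the iron-positive Retnla Cbr2 cells, and Clec10a at 451 and 565 CPM.

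This level came with the cells that the Retnla Cbr2 and Cd163 Lyve1 gates share, 140 iron-negative and 114 iron-positive cells. Cd209f was at 268 CPM in iron-negative cells of both gates, 28.6 CPM with the Cd163 Lyve1 gate alone, 20.5 CPM with the Retnla Cbr2 gate alone and 0.689 CPM with neither. The iron-positive levels were 329, 217, 32.1 and 6.46 CPM. For Cd209f, cells of both gates were thus closer between the libraries than cells of the Cd163 Lyve1 gate alone or of neither gate. The other Cd209 genes differed more in cells of both gates. There Cd209g was at 118 CPM in the iron-negative and 195 CPM in the iron-positive library, Cd209d at 74.9 and 144 CPM, and Cd209b at 8.84 (5.15 to 14.2) and 42.6 CPM (31.7 to 56.0). With the Cd163 Lyve1 gate alone Cd209g was at 15.2 and 119 CPM.

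Cells without the Retnla Cbr2 gate also gave Cd163 Lyve1 ratios over 30 for Cd209f in both libraries (41.6 iron-negative, 33.5 iron-positive). Cells that passed both retained gates, 121 in the iron-positive library, had Cd209f at 13.4 CPM and Clec10a at 123 CPM, against 281 and 557 CPM in cells of the Cd163 Lyve1 gate alone. Their Clec4d level was 802 CPM, near the 705 CPM of the Mmp12 Cd36 gate alone.

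**Figure D4:**
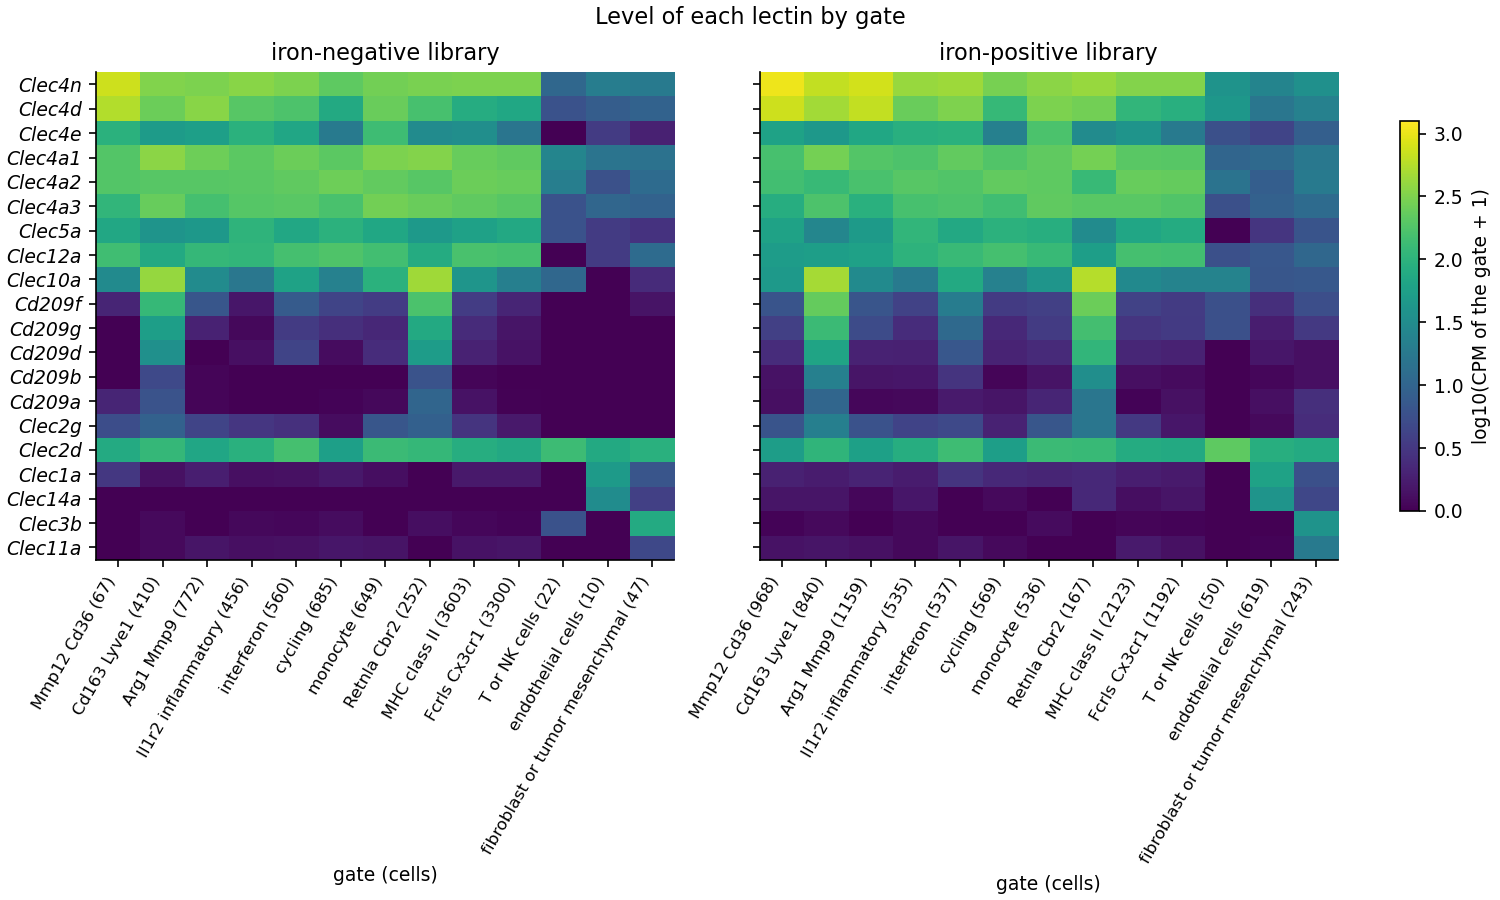
Level of the 20 described members as log10(CPM + 1) in 10 phagocyte states and 3 other cell gates, for the iron-negative (left) and iron-positive (right) library, with the cells of each gate in brackets. Clec4n and Clec4d are brightest in the Mmp12 Cd36 column, Clec10a and the Cd209 genes in the Cd163 Lyve1 and Retnla Cbr2 columns, and Clec1a, Clec14a, Clec3b and Clec11a outside the phagocytes.

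The fourth comparison asked whether members differed between the libraries within a state, where the mix of states matters less. The states share cells and come from the same 2 libraries, so they are not replicates. Clec4n and Clec4d were higher in the iron-positive library in 10 of 10 states, with every interval above 1. The Clec4d ratio ranged from 1.26 in the Il1r2 inflammatory state to 1.89 in the interferon state. The Clec4n ratio ranged from 1.07 in the Fcrls Cx3cr1 state to 2.50 in the Arg1 Mmp9 state. In mesenchymal cells, which should lack both genes, low levels were also higher in the iron-positive library. There Clec4n had a ratio of 1.96 (1.38 to 2.85), from 17.8 CPM in the iron-negative library. Clec4d had one of 2.60 (1.58 to 4.52), from 8.45 CPM. The part of background RNA in the ratios within states was not tested. The mix of states was not held fixed in the Arg1 Mmp9 state. It included 35 Mmp12 Cd36 cells among 772 in the iron-negative library, but 458 among 1159 in the iron-positive one. Clec4n was at 305 and 763 CPM in the whole state, and at 292 and 480 CPM without the Mmp12 Cd36 cells.

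Clec4a1 and Clec4a3 were lower in 10 of 10 states, with every interval below 1 and ratios of 0.710 to 0.888 and 0.614 to 0.908. Clec4a2 had ratios of 0.622 to 0.971 and an interval below 1 in 8 of 10, and Clec12a ratios of 0.358 to 0.950 and an interval below 1 in 9 of 10. Clec4e was mixed, with 6 intervals above 1 and 1 below. The split of the Dectin-2 cluster into a lower Clec4a part and a higher Clec4n and Clec4d part was therefore seen for Clec4a1, Clec4a3, Clec4n and Clec4d in each state, and not for Clec4e in each. Of all genes measured, 39.8% in the Mmp12 Cd36 state and 32.3% in the Cd163 Lyve1 state had a log2 ratio above 0. The lower Clec4a part thus went in the more common direction there. This share was not counted in the other states.

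In the Mmp12 Cd36 state Clec12a was the only member at least 2-fold different between the libraries, at 141 CPM iron-negative and 50.6 CPM iron-positive (ratio 0.358, 0.296 to 0.436), 1 of 10 members against 2.78% of genes lower. None of the 10 was at least 2-fold higher, against 1.56% of genes. In the Cd163 Lyve1 state 4 of 15 members were at least 2-fold higher in the iron-positive library against 1.25% of genes, and 0 lower against 1.21%. These were Clec4n (321 and 650 CPM, ratio 2.02), Clec2g (2.53), Cd209b (5.59) and Cd209g (2.40), with Cd209f just inside 2-fold at 1.97 (1.80 to 2.15). Clec2g and Cd209b reached 10 CPM only in the iron-positive library, so they could not have been counted as lower. The state included 4 Mmp12 Cd36 cells among 410 in the iron-negative library, but 121 among 840 in the iron-positive one. Without these cells Clec4n was at 305 and 576 CPM, short of 2-fold. Clec10a differed less in the whole state, at 402 and 475 CPM with a ratio of 1.18 (1.12 to 1.25). The mix with Retnla Cbr2 cells was not held fixed in these ratios, since 140 iron-negative but 114 iron-positive cells passed both gates. In cells of both gates Clec10a was at 596 and 661 CPM and Cd209f at 268 and 329 CPM. With the Cd163 Lyve1 gate alone the libraries lay further apart, with Clec10a at 288 and 449 CPM and Cd209f at 28.6 and 217 CPM.

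**Figure D5:**
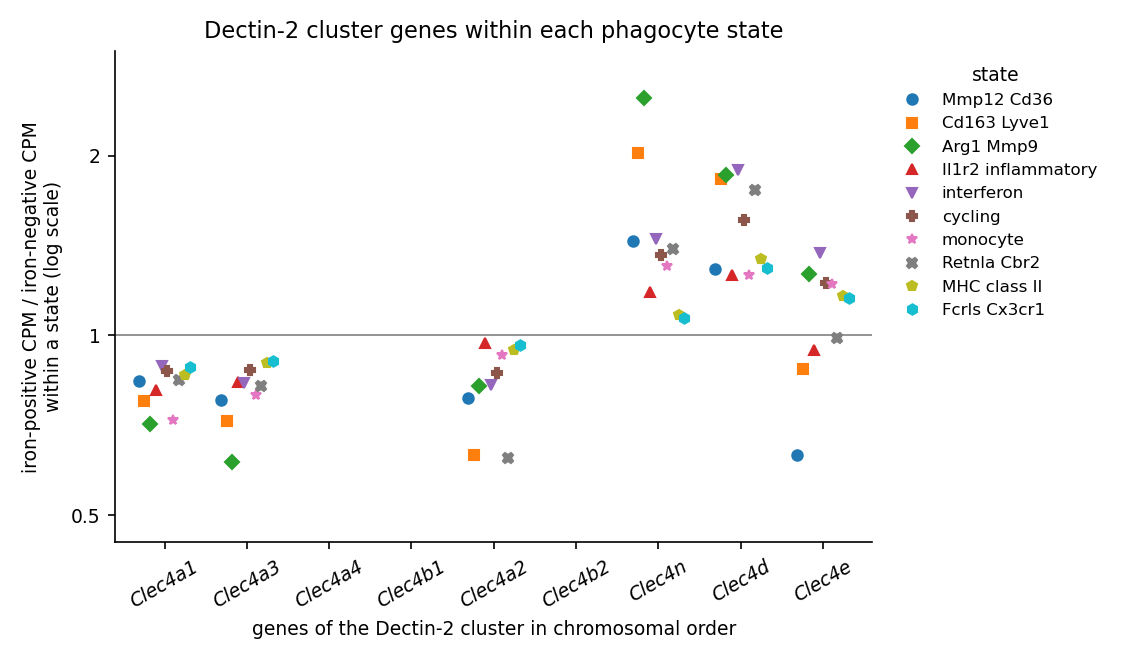
Ratio of CPM in the iron-positive over the iron-negative library within each of 10 phagocyte states (log axis), for the Dectin-2 cluster genes in chromosomal order, drawn where a library had at least 10 CPM. Points of Clec4a1 and Clec4a3 all lie below 1, points of Clec4n and Clec4d all above 1, and those of Clec4e on both sides. Clec4a4, Clec4b1 and Clec4b2 had no level of 10 CPM in these states.

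Outside the phagocytes other members took over. In the iron-positive library 11 of 12 members measured were at least 2-fold lower in T or NK cells than in phagocytes (24.6% of all genes), 11 of 14 in endothelial cells (20.8%) and 11 of 14 in fibroblast or tumor mesenchymal cells (20.3%). These were the same 11 genes, the Dectin-2 cluster members described above with Clec5a, Clec12a, Clec10a, Cd209f and Cd209g. These cells should lack the 11 genes, yet low levels were seen, such as 15.6 CPM of Clec4d in endothelial cells against 296.5 CPM in phagocytes. The part of background RNA in these levels was not tested.

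Clec1a and Clec14a, the latter a receptor of tumor vessels, were the endothelial lectins, 2 of 14 members at least 2-fold higher than in phagocytes against 17.6% of genes. Clec14a was at 39.2 CPM (36 to 42.5) in iron-positive endothelial cells and 0.444 CPM in phagocytes. Clec1a was at 60.6 CPM (56.7 to 64.8) and 0.900 CPM. Both genes reached 10 CPM only on the endothelial side, so they could not have been counted as lower. The 10 iron-negative endothelial cells had 31.5 CPM (16.8 to 53.9) of Clec14a and 48.5 CPM (29.6 to 74.8) of Clec1a, intervals that include the iron-positive levels.

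Clec3b (tetranectin, a plasminogen-binding protein) and Clec11a (a secreted growth factor of skeletal stroma) were the mesenchymal ones, 2 of 14 against 18.5% of genes. Clec3b was at 78.0 CPM (66.6 to 90.8) in 47 iron-negative and 37.8 CPM (33.1 to 43.0) in 243 iron-positive mesenchymal cells. Of the 166 iron-negative UMIs, however, 112 lay in 1 cell. Without the cell with most UMIs of each library, an alternative chosen after seeing the data, Clec3b was at 26.0 CPM (19.5 to 33.9) and 32.5 CPM (28.1 to 37.3), so that the order turned and the intervals overlapped. Clec11a was at 3.76 CPM (1.62 to 7.40) in the iron-negative and 18.1 CPM (14.9 to 21.8) in the iron-positive mesenchymal cells. The iron-negative value rests on 8 UMIs in 3 cells, and without the top cell of each library the levels were 1.92 and 16.9 CPM. In both libraries phagocytes held under 1 CPM of either gene, so neither could have been counted as lower in the mesenchymal cells.

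Clec2d was the broadest member. It was at 216 CPM (158 to 288) in iron-positive T or NK cells, 1 of 12 members at least 2-fold higher there than in phagocytes against 21.6% of genes, and at 134 CPM (88.5 to 195) in the 22 iron-negative ones. In endothelial, mesenchymal and pericyte gates of the iron-positive library it stayed between 77.2 and 87.9 CPM, beside 81.5 CPM in phagocytes.

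The next genes were the adapters and signalling genes downstream of these receptors. Of 26 listed, 24 were measured in phagocytes and 0 differed by at least 2-fold in either direction (1.02% of all genes higher, 0.0389% lower). Of these 5 lay above 0 and 19 below, beside 24.5% of all genes above 0, with a median log2 ratio of -0.11. With so few genes, a count of 0 is near those shares. Fcer1g, the adapter of Clec4n, Clec4d and Clec4e, was at 3175 CPM in iron-negative and 3102 CPM in iron-positive phagocytes, a ratio of 0.977. Tyrobp, the adapter of Clec5a, gave 1.02, and Syk was at 191 and 171 CPM. The genes with the largest log2 ratios were the cytokine gene Il10 (9.97 and 15.8 CPM, 0.66), Vav1 (-0.37), Nfatc2 (-0.35), Nfkb1 (-0.34), Inpp5d (-0.31) and Nfatc1 (-0.27).

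Of 38 genes with a C-type lectin domain and another name, 11 were measured and 0 passed 2-fold in either direction, beside 1.02% of all genes higher and 0.0389% lower. Of the 11, 4 lay above 0 and 7 below, beside 24.5% of all genes above 0, and their median log2 ratio was -0.21. The largest were Thbd (thrombomodulin, 22.6 and 37.2 CPM, 0.72), Cd72 (280 and 185 CPM, -0.60), Vcan (0.54), Mgl2 (-0.33), Pkd1 (-0.26) and Cd93 (-0.24). Mrc1, the macrophage mannose receptor, was at 2305 CPM in iron-negative and 1784 CPM in iron-positive Cd163 Lyve1 cells. Mgl2, the close copy of Clec10a, was at 84.2 and 26.0 CPM in that state, so that it was lower in the iron-positive library where Clec10a was higher.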

How the data were processed

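Single-cell 3′ v3 libraries of the magnetic column eluate and flowthrough were made with 10x Genomics reagents, per the labels' protocols, with 1 library per group. Values in the deposited matrices are unnormalized UMI counts, made by the authors with Cell Ranger on mm10 per the submitters' processing notes. Cell Ranger is 3.1.0 in those notes and 5.0.0 in the file headers, and no annotation release is named in the sources. The members and the gene lists were chosen with earlier results of these data known.

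Cells were kept with at least 200 genes and at most 15% mitochondrial UMIs (92.9% of iron-negative and 88.8% of iron-positive barcodes). Gate thresholds were set after seeing the files. Phagocytes needed 4 of 8 markers and 80 marker UMIs per 10000, T or NK cells 3 markers and 20 per 10000, endothelial, pericyte and fibroblast gates 4 markers and 20 per 10000, and neutrophils 3 markers and 40 per 10000. State gates needed at least 2 markers, and 3 for Cd163 Lyve1, Fcrls Cx3cr1, MHC class II, monocyte, interferon and cycling. They also needed 10 marker UMIs per 10000, with 200 for MHC class II, 40 for Arg1 Mmp9 and 20 for interferon. Fabp5, listed for the Mmp12 Cd36 state, was left out of its gate because it outweighed the other markers. Of iron-positive Mmp12 Cd36 cells 248, and of Cd163 Lyve1 cells 152, lay within 1.5-fold of the threshold. Cells passing 2 class gates were left out (9 iron-negative, 138 iron-positive). Cells in no class gate (385 and 2546) entered no comparison. Scrublet (from scanpy, expected rate 0.08) marked 0 cells in both libraries and so had not worked.

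Each gate's UMIs were added up per gene and given as CPM. Ratios of sums carry exact conditional binomial intervals, levels exact Poisson and shares exact Clopper-Pearson intervals at 95%, for counting error only, and log2 ratios used each count plus 0.5. Genes with at least 10 CPM on either side were measured, and a difference of at least 2-fold was called in place of a test. A gene measured through its higher side alone could not be called in the other direction. The ratio step was run on simulated counts. Members were described individually when they reached 10 CPM in a gate of at least 50 cells and 50 UMIs in all; of each other list at most 6 genes with the largest log2 ratio were named, and Fcer1g, Tyrobp, Syk and Mrc1 were added after their values were seen. Positions came from GENCODE M21 (GRCm38), to which all 38 members matched by Ensembl ID, and upstream DNA from RefSeq (GRCm38.p6), with 31 members matched. The tools were scanpy 1.11.5 for doublets, scipy 1.17.1 for intervals and matplotlib 3.10.9 for plots, under Python 3.11.15 with pandas 2.3.3 and numpy 2.4.6. The alternatives are given with the dependence on processing.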

Additional observations from a re-analysis of the deposited data

Results flagged for a closer look

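Some lectins stood out in gates that entered no comparison, at over 5 times their phagocyte level. In neutrophils Clec4d was at 2513 CPM (1944 to 3198) in the iron-negative library and 2193 CPM (1907 to 2511) in the iron-positive library, 20.5 and 7.40 times its level in phagocytes. Clec4e was at 2590 CPM (2011 to 3283) and 2956 CPM (2621 to 3321) there, 76.0 and 65.4 times its phagocyte level. Clec2d was at 637 CPM (487 to 818) in the 43 iron-positive neutrophils, 7.81 times its phagocyte level. These gates held 9 and 43 cells.

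Among cells that passed no class gate, Cd209a was at 23.5 CPM (18.6 to 29.2) in the iron-negative library, 66.2 times its phagocyte level. These 81 UMIs lay in 3 of 385 cells, 48 of them in 1 cell. In the iron-positive cells without a class, Clec1a was at 4.94 CPM (3.68 to 6.5) and Clec14a at 2.81 CPM (1.88 to 4.04), 5.49 and 6.33 times their phagocyte levels.

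For 6 ratios of a state over other phagocytes the 2 libraries lay on opposite sides of 1, each with an interval on its own side; the difference between libraries was not tested. Clec10a in the monocyte state was 2.14-fold in the iron-negative library and 0.417-fold in the iron-positive library, from 95.8 and 40 CPM in the state. In the interferon state Clec10a gave 1.31 and 0.796. In the Il1r2 inflammatory state Clec4d gave 1.65 and 0.827, and Clec4n 1.15 and 0.863. Clec4a3 in the Fcrls Cx3cr1 state gave 0.916 and 1.07, and Clec5a in the MHC class II state 0.869 and 1.12.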

How the results depend on the processing

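The 2 states at least 2-fold more frequent in the iron-positive library became 3, with Arg1 Mmp9 added, with the gate threshold doubled (ratio 3.18) and with cells thinned to 5000 UMIs (2.05). Of 813 single values under 15 alternatives (11 planned, 4 chosen after seeing the data), 591 moved by less than their counting interval and 222 by more. Of the 813, 19 changed sign, but none past 2-fold did. The limits of 50 CPM and of 1 UMI or more change only which members are counted, so a single ratio cannot move under them. Such values fall among the 591 by construction and do not test the ratios. Both limits also count among the alternatives of the ranges given above. For iron-positive against iron-negative phagocytes, 3 members higher and 0 lower became 1 higher at 50 CPM, 1 higher with states weighted equally, and 11 higher and 2 lower with members of 1 UMI or more. For the Mmp12 Cd36 state in the iron-negative library, 3 higher and 0 lower became 6 higher and 2 lower when cells were thinned to 1000 UMIs and 19 higher and 3 lower with 1 UMI or more. The count lower was 1 with the mean of each cell's CPM, 1 with 10% free RNA subtracted and 1 with the gate threshold doubled. In the iron-positive library 2 higher and 6 lower became 3 lower at 50 CPM, and 5 higher and 13 lower with 1 UMI or more. For the Cd163 Lyve1 state, 5 higher and 1 lower in the iron-negative library became 2 lower with the gate doubled, 0 lower without the Retnla Cbr2 cells (chosen after seeing the data), and 19 higher and 3 lower with 1 UMI or more. In the iron-positive library, 6 higher and 2 lower became 13 higher and 7 lower with 1 UMI or more. Without the cell with most UMIs of the gene in each library, a further alternative chosen after seeing the data and run on gates outside the phagocytes, the mesenchymal log2 ratio of Clec3b (iron-positive over iron-negative) went from -1.05 to 0.32, since 112 of 166 iron-negative UMIs lay in 1 cell. The counts with 1 UMI or more add genes of few UMIs, whose log2 ratios depend on the small count added to each side. That added count lifts a rare gene in the side with fewer UMIs. The iron-negative Mmp12 Cd36 state held 919202 UMIs, and all iron-negative phagocytes 124159629. The counts with 1 UMI or more therefore cannot show which members differ, and no conclusion is drawn from them. Beyond the added count, the 1 cell rich in Clec3b and the genes that each filter adds or drops, the cause was not tested. The other alternatives (10% mitochondrial limit, 500 genes, scaling by the median ratio, highest Scrublet scores removed, shared barcodes removed, Arg1 Mmp9 cells removed) left these counts within 1.5 times.

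No replicate was left out, since each group has 1 library. No paired analysis was possible because each group has 1 library and the labels give no replicate numbers. Depth limits small gates: a count of 0 allows up to 3.26 CPM in the 67 iron-negative Mmp12 Cd36 cells, 7.27 CPM in the 10 iron-negative endothelial cells and 14.9 CPM in the 22 iron-negative T or NK cells. Thinning to 1000 UMIs dropped 184 phagocytes of the iron-negative library and 587 of the iron-positive one. Cell gates rest on a few markers each, and 85 barcodes occurred in both libraries.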

Other observations

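Clec9a (the receptor DNGR-1, which binds actin exposed on dead cells and marks type 1 conventional dendritic cells) was chosen here after its values were seen. It stayed under 10 CPM in every gate but was unevenly spread over the states. In the MHC class II state it was at 3.24 CPM (2.78 to 3.76) in the iron-negative library and 0.390 CPM in other phagocytes, a ratio of 8.32 (5.53 to 13). In the iron-positive library it was at 5.21 CPM (4.36 to 6.17) and 0.667 CPM, a ratio of 7.81 (5.45 to 11.4). In the Mmp12 Cd36 state it was at 5.44 CPM (1.77 to 12.7, from 5 UMIs) in the iron-negative library and 0.848 CPM (0.407 to 1.56) in the iron-positive library. The Cd163 Lyve1 state held no Clec9a UMI in the iron-negative library, which allows up to 0.576 CPM (3 counts), and 3 UMIs in the iron-positive library. The 5 markers of type 1 conventional dendritic cells summed to 278 CPM in iron-negative and 204 CPM in iron-positive phagocytes, with none at 0 and Naaa the highest at 175 and 121 CPM. In the iron-negative Cd163 Lyve1 state, which held no Clec9a UMI, they summed to 405 CPM with Naaa at 353 CPM. Flt3, Zbtb46 and Dpp4, markers of dendritic cells in general, summed to 0.926 CPM in iron-negative and 1.51 CPM in iron-positive phagocytes. The part of dendritic cells in the Clec9a level was not tested. Of the last 500 bases of Clec1b, which overlaps Clec9a on the same strand, 30.2% of the 50-letter words also occur in Clec9a. The UMIs of Clec1b are therefore uncertain, while the last 500 bases of Clec9a held no word found in another gene.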
